A study of Mus musculus with 12 samples.

Results

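The small proline-rich (Sprr) genes were followed through RNA-seq of mouse back skin in 3 groups of 4 samples. The members were the rows of the deposited table that carried 10 listed symbols (Sprr1a, Sprr1b, Sprr2b, Sprr2d, Sprr2e, Sprr2f, Sprr2g, Sprr2h, Sprr3 and Sprr4). Of these, 9 had a row among the 18505 genes, and Sprr2g had none. The mice were male wild-type BALB/c animals with shaved back skin, and all skin was taken on day 10. The control group received petroleum jelly (the sample labels call its treatment "white space handling"). The IMQ + NS group received imiquimod cream, a Toll-like receptor agonist that gives a psoriasis-like dermatitis, followed by saline. The IMQ + BZLF group received the same cream followed by Banzhilian formula (BZLF), a preparation of medicinal materials applied to the skin. The labels do not state the BZLF dose of the sequenced samples. By the paper's methods, the saline or BZLF of both imiquimod groups was held in place with gauze and a polyurethane film. No such cover is described for the controls. No group received BZLF without imiquimod, so every BZLF value is from inflamed skin. Imiquimod, its cream base and the moist cover cannot be told apart in the comparisons with the controls. Each sample is named below by its group and its replicate number in the labels, and 4 values in a row are replicates 1 to 4.

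Sprr proteins are small, proline-rich precursors that transglutaminases cross-link into the cornified cell envelope, the protein shell that replaces the membrane of dying keratinocytes. They act as bridges between larger envelope proteins such as loricrin, and the mixture of Sprr proteins changes with the site and state of the epithelium. Sprr1 and Sprr2 genes are known for rising in wounded, irritated and psoriatic epidermis, Sprr3 for internal stratified epithelia such as the oral cavity and esophagus, and Sprr4 for epidermis under ultraviolet stress. The genes lie together in the epidermal differentiation complex beside loricrin, involucrin and the late cornified envelope (Lce) genes.

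In the GRCm38 assembly (mm10 in the submitters' processing notes) the annotated Sprr genes spanned 285 kb of chromosome 3. The Sprr2 genes lie on the plus strand, from Sprr2b (chr3:92316620-92318085) through Sprr2d (chr3:92339140-92340873), Sprr2e (chr3:92352143-92353449) and Sprr2f (chr3:92365187-92366442) to Sprr2h (chr3:92385685-92387324). Sprr1b (chr3:92436809-92438789), Sprr3 (chr3:92456502-92458720), Sprr1a (chr3:92483952-92485895) and Sprr4 (chr3:92500263-92500493) follow on the minus strand. The Sprr4 model is a single coding exon of 231 bases without untranslated sequence, so its level per length rests on a shorter model than those of the other members.

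Because the values below differ so much among neighbouring members, the sequence upstream of 5 of them is shown. Sprr2d and Sprr2e, with Sprr2b, had the largest falls under BZLF. Sprr2h and Sprr1b had the smallest falls that passed the test, and Sprr1a did not pass it. Each line gives the bases before the gene's start on the gene's own strand, from RefSeq (GRCm38.p6). Capitals mark matches to an AP-1 motif (TGANTCA), an octamer-type motif (ATGCAAA, here on the opposite strand) and a TATA box (TATAAA).
Sprr2d (chr3:92338890-92339139, plus strand): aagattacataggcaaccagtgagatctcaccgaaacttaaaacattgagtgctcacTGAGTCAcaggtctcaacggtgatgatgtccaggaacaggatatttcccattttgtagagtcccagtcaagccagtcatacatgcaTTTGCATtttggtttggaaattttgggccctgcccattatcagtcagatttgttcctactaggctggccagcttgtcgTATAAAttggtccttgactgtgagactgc
Sprr2e (chr3:92351893-92352142, plus strand): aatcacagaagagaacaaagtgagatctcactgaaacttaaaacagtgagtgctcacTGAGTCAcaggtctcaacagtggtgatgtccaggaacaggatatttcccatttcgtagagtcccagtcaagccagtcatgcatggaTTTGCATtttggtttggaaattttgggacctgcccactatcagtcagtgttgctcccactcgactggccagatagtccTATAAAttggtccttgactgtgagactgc
Sprr2h (chr3:92385435-92385684, plus strand): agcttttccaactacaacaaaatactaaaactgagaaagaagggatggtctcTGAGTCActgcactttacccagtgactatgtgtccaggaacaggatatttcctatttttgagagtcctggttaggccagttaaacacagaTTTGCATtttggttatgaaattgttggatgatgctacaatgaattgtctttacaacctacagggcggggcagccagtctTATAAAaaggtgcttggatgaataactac
Sprr1b (chr3:92438790-92439029, minus strand): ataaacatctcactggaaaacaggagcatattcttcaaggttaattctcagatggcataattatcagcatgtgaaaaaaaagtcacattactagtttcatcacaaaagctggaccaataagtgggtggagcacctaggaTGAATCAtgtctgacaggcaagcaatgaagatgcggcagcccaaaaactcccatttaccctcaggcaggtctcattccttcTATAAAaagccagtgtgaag
Sprr1a (chr3:92485896-92486131, minus strand): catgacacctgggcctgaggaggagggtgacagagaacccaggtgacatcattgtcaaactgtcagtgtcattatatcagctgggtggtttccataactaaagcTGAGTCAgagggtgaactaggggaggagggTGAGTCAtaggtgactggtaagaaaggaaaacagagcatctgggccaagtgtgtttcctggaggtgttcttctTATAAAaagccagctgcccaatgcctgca

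Sprr2d, Sprr2e and Sprr2h held the AP-1, octamer-type and TATA matches in the same order and at nearly the same distances from the start. The AP-1 match began 193 bases before the start in Sprr2d and Sprr2e and 198 bases before it in Sprr2h. Of the 9 members, all matched to a RefSeq promoter of 250 bases before to 50 bases after the start, 7 held TGANTCA on either strand, against 7.81% of 32851 mouse promoters. These were the 5 Sprr2 members, Sprr1b and Sprr1a, which held 2 matches. The octamer-type motif was present in 5 of 5 Sprr2 members and in no other member, against 4.63% of promoters. TATAAA was present in 8 of 9 members (all except Sprr4), against 13.6% of promoters. The Sprr4 model has no untranslated sequence, so its window is set at the start of its coding exon. Matches found or missing in that window, and base comparisons with it, may not describe the Sprr4 promoter. The Ets-type motif AGGAAG was found in 3 of 9 members (35.4% of promoters) and the Klf-type motif CACCC in 4 of 9 (57.5%). All motifs were searched on both strands. In Sprr1a 1 Klf-type match shared bases with an AP-1 match, and no other matches in the members overlapped. A match describes the letters only. Compared base by base at equal distance from the start, the windows of Sprr2d and Sprr2e were 88.0% equal. Other pairs of Sprr2 members were 31.0 to 50.7% equal, and pairs that included Sprr1, Sprr3 or Sprr4 were 21.3 to 29.0% equal. Of the 100-base stretches of their transcripts, Sprr2b shared 0.438% and Sprr2e 1.10% with another Sprr2 gene, and the other 7 members shared none with any gene. That reference is of another strain than the BALB/c mice sampled.

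The table gave FPKM, a level corrected for the length of the transcript and the depth of the library. The values were whole multiples of a step, so whole reads could be read back for 99.9% of the 15288 genes that averaged 0.1 FPKM or more. The libraries held 38258231 to 40967094 fragments on this scale. Control replicate 2 stood apart from the other controls. Its hair shaft keratins summed to 299 FPKM, against 13.3 to 32.2 in the other controls, and its seminal vesicle transcripts to 39.4 FPKM. IMQ + BZLF replicate 2 also held seminal vesicle transcripts, at 38.2 FPKM, while the other 10 samples held 0 to 0.0441 FPKM. Many values that lost a call or moved by more than 1.5 times without either library are given below also without it. Others are not, so a value given only once was not always unchanged. No source says whether the samples of a group came from separate litters or cages, and p-values measure the spread between these samples only. The 3 comparisons share groups, so they are not independent of each other.

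The question of the first comparison was which members differ between normal skin and the imiquimod lesion. All 8 tested members rose in the IMQ + NS group. Of these, 7 averaged at least 0.1 FPKM in the controls alone, whereas Sprr2e passed that filter only through the imiquimod groups. A call (limma on log2(FPKM + 0.1)) needed an adjusted p under 0.05 and a change of more than 1 on the log2 scale, and 11.4% of the 15288 genes were called higher. None of the members was called lower, a direction that held 11% of genes, and the number was also 0 at an unadjusted p under 0.05 and in a voom fit of the recovered reads. Their log2 fold changes ran from 2.20 to 9.97 with a median of 8.42, while the median of all genes tested was 0.05. The smallest changes belonged to Sprr1a and Sprr4, which were the members already high in normal skin. Sprr1b and the 5 Sprr2 members had control means under 1 FPKM and rose by 7.25 or more on the log2 scale. For all 8, every IMQ + NS sample lay above every control sample, which held for 23.7% of genes.

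**Figure D1:**
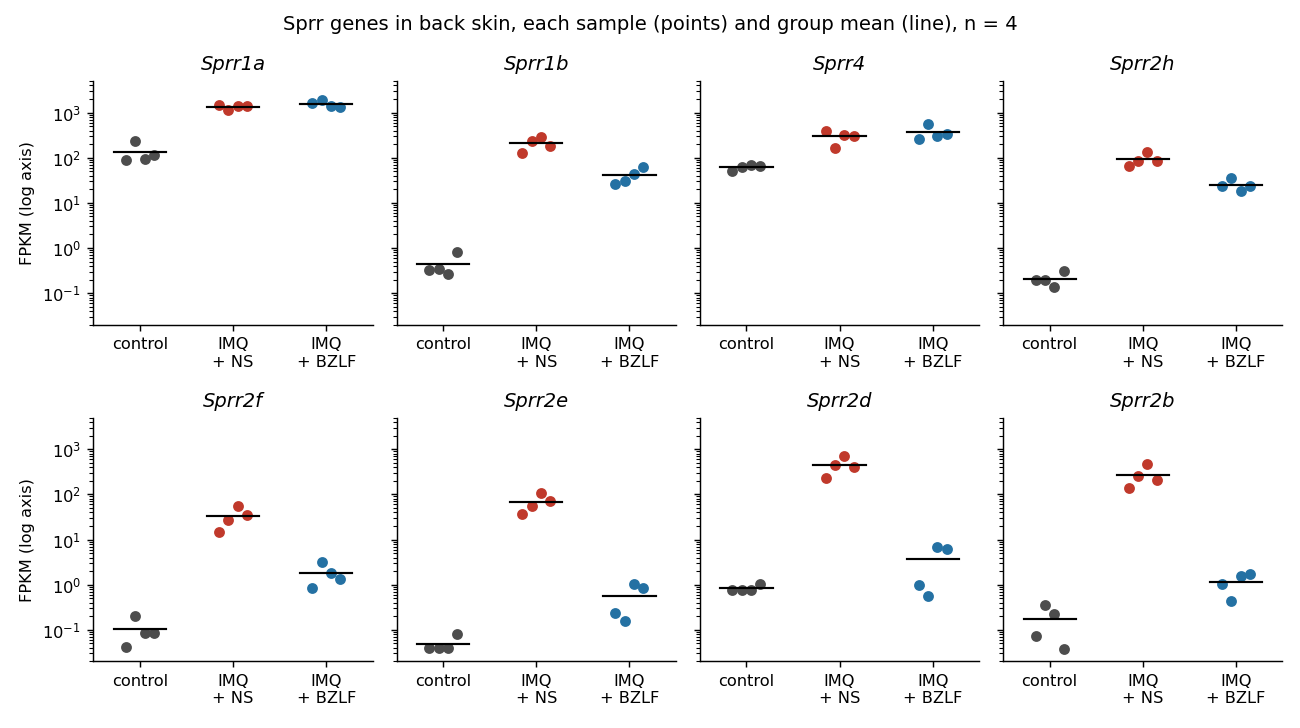
FPKM (log axis) of 8 Sprr genes in each of the 12 samples, by group, with the group mean as a line. Sprr1a and Sprr4 start high and stay high under IMQ + BZLF, at means of 1566 and 365 FPKM, while Sprr2b, Sprr2d and Sprr2e return to means of 1.18, 3.65 and 0.562 FPKM.

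Sprr1a, a cross-bridging precursor of the envelope, was the most abundant member in every group. It stood at 88.9, 236, 95.1 and 113 FPKM in the control group (133 ± 69.3, SD, n = 4) and at 1478, 1121, 1387 and 1398 FPKM in the IMQ + NS group (1346 ± 155, n = 4). The groups did not overlap, and the high control value was that of replicate 2, the library that stood apart. The log2 fold change was 3.45 (SE 0.28, limma adjusted p = 2.84e-05), or 3.76 (adjusted p = 1.62e-07) without that library. Sprr1b, its close relative, was far lower in normal skin. Its control values of 0.321, 0.350, 0.268 and 0.811 FPKM rested on 9 to 27 reads a library, and its IMQ + NS values were 127, 237, 293 and 180 FPKM (209 ± 71.3, n = 4). The log2 fold change was 8.64 (SE 0.33, limma adjusted p = 3.49e-07). The pair thus drew closer in level: Sprr1a was 139 to 675 times Sprr1b in the controls and 4.74 to 11.6 times Sprr1b in the IMQ + NS samples.

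Sprr4, whose product is laid down at the cell periphery under ultraviolet stress, was the other member expressed in normal skin. It measured 51.7, 63.5, 67.7 and 66.6 FPKM in the controls (62.4 ± 7.35, n = 4). In the IMQ + NS group it measured 400, 166, 325 and 304 FPKM (299 ± 97.4, n = 4). All of these lay above the controls, with a log2 fold change of 2.20 (SE 0.24, limma adjusted p = 1.36e-04). Sprr3, the member of internal epithelia, was close to absent throughout. It had 1 read in IMQ + NS replicate 3 and 1 in IMQ + BZLF replicate 1, and none in the other 10 samples, which allows up to 0.0600 to 0.0642 FPKM a library at 3 reads. It did not pass the filter of a mean of 0.1 FPKM and was not tested. The limit covers counting error only.

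The Sprr2 members, the group most often used as markers of irritated epidermis, rose from control means of 0.0491 to 0.8288 FPKM to means of 33.0 to 453 FPKM. The IMQ + NS samples of Sprr2d and Sprr2b overlapped those of Sprr4, and those of Sprr2e, Sprr2f and Sprr2h all lay below them. Sprr2d measured 0.772, 0.771, 0.751 and 1.02 FPKM in the controls (0.8288 ± 0.129, n = 4) and 226, 459, 722 and 407 FPKM in the IMQ + NS group (453 ± 205, n = 4). The 2 groups lay far apart, with a log2 fold change of 8.82 (SE 0.30). Sprr2b measured 0.0716, 0.358, 0.219 and 0.0369 FPKM in the controls and 136, 261, 473 and 204 FPKM in the IMQ + NS group (268.5 ± 145, n = 4). Its log2 fold change of 9.97 (SE 0.46) was the largest of the family. Its controls held 19 reads in all, and by reads per fragment the increase was 1560-fold (95% exact counting interval 999 to 2592). Of the 19 reads 10 were in control replicate 2, and without that library the increase was 2460-fold (1296 to 5380).

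Sprr2e was the least abundant member with a test in normal skin, at 1, 1, 1 and 2 reads in the 4 controls. It reached 36.2, 55.1, 108 and 72.2 FPKM in the IMQ + NS group (67.8 ± 30.4, n = 4). The fitted log2 fold change of 8.73 (SE 0.30) depends on the constant of 0.1 at such counts, and the ratio of reads per fragment was 1388 (95% exact counting interval 594 to 4275). Sprr2f rose from 0.0411, 0.205, 0.0840 and 0.0846 FPKM to 14.9, 26.6, 55.4 and 35.1 FPKM (33.0 ± 17.0, n = 4). Its ratio of reads was 318 (interval 173 to 664) and its log2 fold change 7.25 (SE 0.39). Sprr2h rose from 0.200, 0.200, 0.136 and 0.308 FPKM to 64.3, 85.1, 137 and 83.8 FPKM (92.7 ± 31.3, n = 4), a log2 fold change of 8.19 (SE 0.24). The limma adjusted p-values of the 5 Sprr2 members lay between 9.26e-08 and 2.76e-06. In none of them did the groups overlap.

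Within the IMQ + NS group the members fell into 2 orders. Sprr1b and all 5 Sprr2 members were highest in replicate 3 and lowest in replicate 1, with the highest value 2.14 to 3.70 times the lowest. Sprr1a and Sprr4 were highest in replicate 1 and lowest in replicate 2, by 1.32 and 2.40 times. Neutrophil markers had the first of these orders too. Their summed FPKM was 3132, 5766, 9906 and 5061 in replicates 1 to 4, and hyperproliferative keratins (Krt6a, Krt6b, Krt16 and Krt17) summed to 2344, 2551, 4207 and 3173 FPKM. The hair shaft keratins, at 8277, 6117, 7072 and 9006 FPKM, were highest in replicate 4 and, like Sprr1a and Sprr4, lowest in replicate 2. Epidermal keratinocyte markers, at 7570, 9121, 10002 and 7060 FPKM, were highest in replicate 3 and lowest in replicate 4. The part of these cell types in the Sprr values was not tested.

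The next comparison asked which members changed when BZLF was applied to the imiquimod lesion. Of the 8 tested members, 6 fell and 2 did not pass the test. A call in the lower direction was made for 2.2% of 15288 genes. The 6 were Sprr1b and the 5 Sprr2 members, and Sprr1a and Sprr4 were the others. No member rose in this comparison (limma), where 0.321% of genes were called higher. The number was also 0 at an unadjusted p below 0.05 and 0 in a voom fit of the recovered reads. The median log2 fold change of the 8 was -3.26, against -0.02 for all genes tested. In all 6 members that fell, every IMQ + BZLF sample lay below every IMQ + NS sample, which held for 10.9% of genes.

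**Figure D2:**
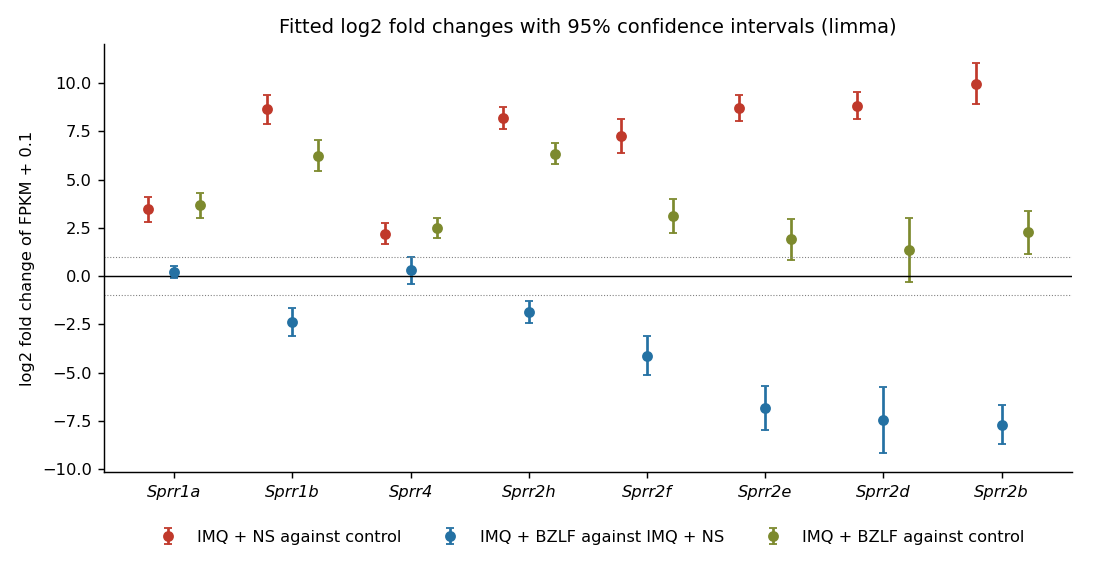
Fitted log2 fold changes (limma, FPKM + 0.1) of 8 Sprr genes with their 95% confidence intervals, for the 3 comparisons, with dotted lines at a log2 fold change of 1 in either direction. In IMQ + BZLF against IMQ + NS the values run from 0.29 for Sprr4 and 0.21 for Sprr1a down to -7.70 for Sprr2b.

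The falls differed widely among the Sprr2 genes. Sprr2b fell to 1.03, 0.447, 1.52 and 1.71 FPKM (1.18 ± 0.565, n = 4), a log2 fold change of -7.70 (SE 0.44) that left 0.439% of the IMQ + NS mean. Sprr2d fell to 0.983, 0.573, 6.85 and 6.20 FPKM (3.65 ± 3.33, n = 4), a log2 fold change of -7.46 (SE 0.76) that left 0.805%. Without IMQ + BZLF replicate 2 the log2 fold change was -6.85. Sprr2e fell to 0.239, 0.161, 1.02 and 0.830 FPKM (0.562 ± 0.426, n = 4), a log2 fold change of -6.83 (SE 0.50) that left 0.8294%. All 12 of these values lay below 7 FPKM, and all 3 genes were higher in replicates 3 and 4 than in replicates 1 and 2. The limma adjusted p-values of the 3 lay between 8.26e-05 and 0.00151.

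The other 3 genes that fell kept more of their lesional level. Sprr2f fell to 0.846, 3.21, 1.79 and 1.32 FPKM (1.79 ± 1.02, n = 4), which was 5.43% of the IMQ + NS mean (log2 fold change -4.13, SE 0.45). Sprr1b fell to 25.6, 29.8, 43.4 and 62.8 FPKM (40.4 ± 16.7, n = 4), which was 19.3% of that mean (log2 fold change -2.39, SE 0.32). Sprr2h fell to 23.2, 36.1, 18.5 and 23.6 FPKM (25.3 ± 7.56, n = 4), which was 27.3% (log2 fold change -1.85, SE 0.25). Sprr2h was thus the Sprr2 gene with the highest level under BZLF although it ranked behind Sprr2d and Sprr2b in the untreated lesion. The limma adjusted p-values were 0.00177 for Sprr2f, 0.00469 for Sprr1b and 0.00480 for Sprr2h.

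Sprr1a and Sprr4 were the members that did not pass the test. Sprr1a measured 1646, 1863, 1420 and 1338 FPKM under BZLF (1566 ± 237, n = 4), overlapping the IMQ + NS samples. The log2 difference was 0.21 with a 95% confidence interval of -0.08 to 0.51 (limma adjusted p = 0.373), so a fall as large as those of the other members lay outside the interval. Sprr4 measured 260, 568, 301 and 334 FPKM (365 ± 138, n = 4), which also overlapped the IMQ + NS samples. Its log2 difference was 0.29 with an interval of -0.39 to 0.97 (limma adjusted p = 0.613). The highest value was that of replicate 2, a library with seminal vesicle transcripts, and without it the difference was 0.06 (limma adjusted p = 0.94). An adjusted p above the threshold does not show equal levels.

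BZLF-treated lesions were also set against normal skin, which shows how far each member returned. Of 8 tested members 7 were higher than in the controls, in a comparison where 9.65% of genes were called higher. None was lower by limma, at an unadjusted p below 0.05 or in the voom fit, where the background was 10.1%. Sprr2h stayed furthest above normal skin (log2 fold change 6.34, SE 0.23, limma adjusted p = 2.83e-07), followed by Sprr1b at 6.25 (SE 0.35) and Sprr1a at 3.66 (SE 0.29). Sprr2f was at 3.12 (SE 0.39), Sprr4 at 2.49 (SE 0.22), Sprr2b at 2.26 (SE 0.48) and Sprr2e at 1.89 (SE 0.47). Every IMQ + BZLF sample lay above every control for these 7 genes, which held for 19.4% of genes. By reads, Sprr2e was 11.6 times the control level (95% exact counting interval 4.70 to 37.1) and Sprr2b was 6.90 times it (4.25 to 11.8), or 10.9 times (5.56 to 24.3) without control replicate 2.

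Sprr2d was the member for which a difference from normal skin was not established. Its log2 fold change was 1.37 with a 95% confidence interval of -0.29 to 3.02 (limma adjusted p = 0.143), and IMQ + BZLF replicate 2, at 0.573 FPKM, lay below all 4 controls. Without that replicate the log2 fold change was 1.97 (limma adjusted p = 0.0317). With a constant of 1 in the logarithm, Sprr2b and Sprr2e had log2 fold changes of 0.86 and 0.53 and were no longer called, since their levels lie near or below that constant.

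Both the sum of the Sprr transcripts and their mixture differed between the groups. The 9 members summed to 142 to 302 FPKM in the controls, 2411 to 3499 FPKM in the IMQ + NS group and 1768 to 2501 FPKM in the IMQ + BZLF group. As reads they made up 0.00832 to 0.0203%, 0.170 to 0.245% and 0.121 to 0.166% of the fragments. The 5 Sprr2 members held 0.521 to 0.841% of the summed FPKM in the controls, 19.2 to 42.7% in the IMQ + NS group and 1.34 to 1.90% in the IMQ + BZLF group. The share of Sprr1a was 57.9 to 78.3% in the controls, 39.6 to 59.5% in the IMQ + NS group and 74.5 to 84.1% in the IMQ + BZLF group. Sprr4 held 21.1 to 41.2%, 6.89 to 16.1% and 13.3 to 22.7%, and Sprr1b held 0.116 to 0.446%, 5.13 to 9.82% and 1.19 to 3.55%, in the same order of groups. The listed Sprr2 genes were thus a large part of the mixture in the IMQ + NS samples and under 2% of it in the other 8. These shares are of levels per length and depend on the short model of Sprr4.

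**Figure D3:**
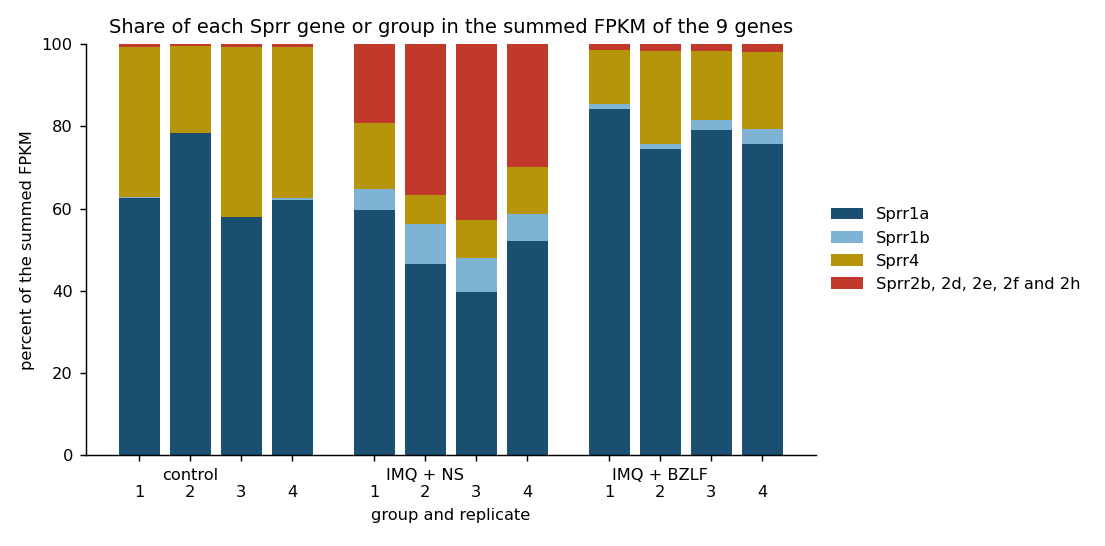
Stacked shares (percent) of Sprr1a, Sprr1b, Sprr4 and the 5 listed Sprr2 genes in the summed FPKM of the 9 members, for each of the 12 samples. The Sprr2 share is 19.2 to 42.7% in the 4 IMQ + NS samples and at most 1.90% in the others, and Sprr3 is too small to be seen.

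In order of level, the control skin held Sprr1a, then Sprr4, then Sprr2d, Sprr1b, Sprr2h, Sprr2b, Sprr2f and Sprr2e. Only the steps from Sprr1a to Sprr4 and from Sprr4 to Sprr2d were free of overlap between the 4 samples of neighbouring genes. In the IMQ + NS group the order was Sprr1a, Sprr2d, Sprr4, Sprr2b, Sprr1b, Sprr2h, Sprr2e and Sprr2f, and only Sprr1a was clear of its neighbour. In the IMQ + BZLF group it was Sprr1a, Sprr4, Sprr1b, Sprr2h, Sprr2d, Sprr2f, Sprr2b and Sprr2e. There Sprr1a, Sprr4 and the pair of Sprr1b and Sprr2h were each clear of the next, and the last 4 genes overlapped.

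Ratios of members within a sample do not depend on the scaling between samples, and 12 differences in such log2 ratios were tested over 4 pairs and 3 comparisons. The tests were two-sided exact permutation tests of 4 against 4 samples, whose smallest possible p is 0.0286, and that p was reached 7 times (adjusted p = 0.049 over the 12 tests). The ratios among Sprr1a, Sprr2d and Sprr4 are tied, since each follows from the others. The 12 tests are therefore not independent, and their adjusted p lies just under the threshold of 0.05. Sprr2d stood for the Sprr2 genes because it had the highest mean of them over these same 12 samples. That mean rests mainly on the IMQ + NS group, where Sprr2d was also the highest Sprr2 gene. The p-values of pairs with Sprr2d do not allow for this choice. No other Sprr2 gene was tested in a pair, so these results do not extend to the others. Sprr1a relative to Sprr2d was 111 to 306 in the controls. It was 1.92 to 6.54 in the IMQ + NS group and 207 to 3250 in the IMQ + BZLF group. On the log2 scale the ratio fell by 5.38 from control to IMQ + NS and was 7.67 higher in IMQ + BZLF than in IMQ + NS, both at the smallest p. The second of these differences was 6.98 without IMQ + BZLF replicate 2. Against the controls the IMQ + BZLF ratio was 2.30 higher (p = 0.0857, adjusted p = 0.103, exact permutation test), with overlapping samples. That difference was 1.60 without IMQ + BZLF replicate 2.

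Sprr2d relative to Sprr4 followed the same course. The ratio was 0.0111 to 0.0153 in the controls, 0.566 to 2.76 in the IMQ + NS group and 0.00101 to 0.0228 in the IMQ + BZLF group. Its log2 differences were 6.63 for IMQ + NS against control and -7.75 for IMQ + BZLF against IMQ + NS, both at the smallest p of the exact test. The second of these differences was -6.91 without IMQ + BZLF replicate 2. Sprr1a relative to Sprr1b gave the smallest p in all 3 comparisons, with log2 differences of -5.19, 2.61 and -2.58. Without IMQ + BZLF replicate 4, the 4 differences of that group that had reached the smallest p had adjusted p-values of 0.0571 to 0.0762 (exact permutation tests of 3 against 4 samples). Sprr1a was 21.3 to 64.2 times Sprr1b under BZLF, between the other groups.

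Sprr1a relative to Sprr4 showed no difference that passed the threshold. The ratio was 1.404 to 3.72 in the controls, 3.70 to 6.75 in the IMQ + NS group and 3.28 to 6.34 in the IMQ + BZLF group. The log2 differences were 1.25 for IMQ + NS against control and 1.17 for IMQ + BZLF against control (each p = 0.0571, adjusted p = 0.0762, exact permutation test). The high control ratio of 3.72 was that of replicate 2. Without it the differences were 1.55 and 1.48 with an adjusted p of 0.0381 each (exact permutation test, 3 against 4 samples). Between the imiquimod groups the difference was -0.08 (p = 0.771, exact permutation test), and its sign changed when replicate 2 of either group was left out. As a description chosen after the values were seen, Sprr2d was 3.31 to 5.52 times Sprr2h in the controls and 3.51 to 5.39 times in the IMQ + NS group, but 0.0159 to 0.371 times in the IMQ + BZLF group.

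**Figure D4:**
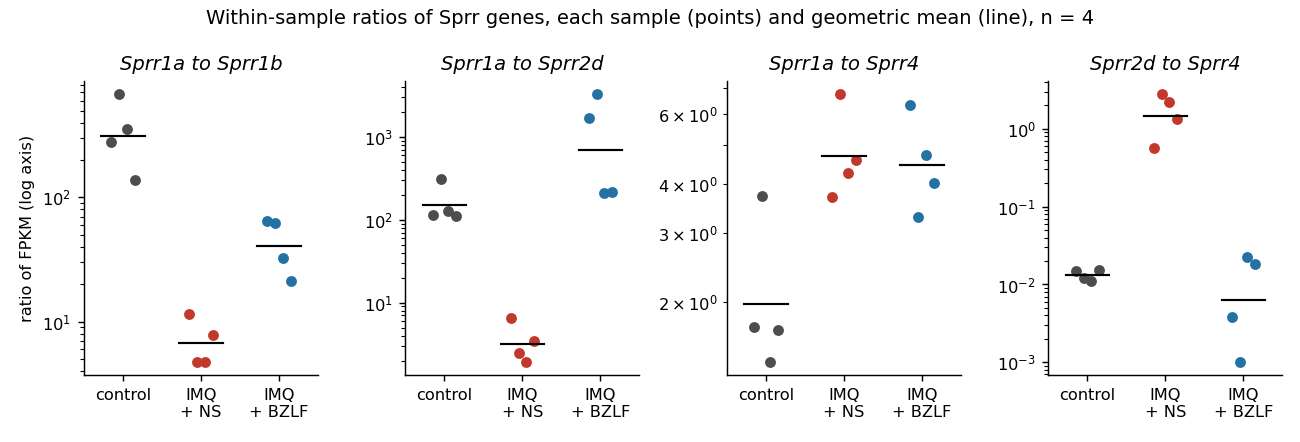
Within-sample FPKM ratios (log axes) of 4 pairs of Sprr genes in each of the 12 samples, by group, with the geometric mean as a line. Sprr1a to Sprr2d is 1.92 to 6.54 in the IMQ + NS samples and at least 111 in all others, whereas Sprr1a to Sprr4 overlaps between the imiquimod groups.

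Of the Sprr rows outside the listed symbols, 4 passed the filter. Sprr2k and Sprr2a1 passed it only through the IMQ + NS group, so their rise and fall were set by the filter. Sprr2i and Sprr2a3 rose in the IMQ + NS group and fell in the IMQ + BZLF group, and Sprr2i stayed above the controls. Sprr2i went from 0.0406, 0.0811, 0.207 and 0.251 FPKM in the controls to 31.4, 59.3, 76.9 and 67.2 FPKM in the IMQ + NS group. It stood at 0.417, 0.801, 2.22 and 2.57 FPKM under BZLF (log2 fold change -5.42 against IMQ + NS, SE 0.52, limma adjusted p = 0.00134). Sprr2a3 fell from 50.8 ± 20.9 to 3.36 ± 5.14 FPKM (SD, n = 4), with 11.1 FPKM in IMQ + BZLF replicate 4 and at most 1.22 FPKM in the other 3 samples of that group. Sprr2k had no read in any control, and Sprr2a1 and Sprr2a2 had at most 94 reads in any library. Sprr2a1 and Sprr2a2 share 92.5% and 92.8% of their 100-base stretches with other Sprr2 genes, so their split from Sprr2a3 is uncertain.

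The other precursors of the cornified envelope were followed as lists. Of 19 envelope proteins outside the Sprr and Lce families, 14 rose and 2 fell in the IMQ + NS group, with a median log2 fold change of 1.92. The largest rises were Tchhl1 (7.92), Stfa3 (7.89), Crnn (7.33) and Tchh (7.14). Control replicate 2 was the highest control for Tchhl1, Crnn and Tchh, and without it their log2 fold changes were 8.64, 8.70 and 8.5, and 13 of the 19 rose. Of these Tchh, trichohyalin, is known from the inner root sheath of the hair follicle, and Stfa3 is a cysteine protease inhibitor. Lor, the main envelope protein loricrin, fell by 1.03 on the log2 scale (654 ± 277 to 307 ± 98.5 FPKM, limma adjusted p = 0.0422), and Ivl, involucrin, rose by 1.69 (limma adjusted p = 6.35e-04). Both were named after their values were seen. Under BZLF only 1 of the 19 rose and 3 fell against IMQ + NS, with a median of 0.07. The log2 fold changes were -3.19 for Stfa3, -2.41 for Rptn and -1.02 for Csta1, and 1.98 for Flg2, a filaggrin relative. Without IMQ + BZLF replicate 2, only the fall of Csta1 was called, since Flg2 (1.86, limma adjusted p = 0.0501), Stfa3 (-2.91, adjusted p = 0.0525) and Rptn (-2.27, adjusted p = 0.0753) lost their call. Against the controls 14 of the 19 were higher and 2 lower under BZLF. The counts were 13 and 1 without IMQ + BZLF replicate 2, and 13 and 3 without control replicate 2.

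Of 9 envelope enzymes, which cross-link or prepare the envelope, 5 rose and 1 fell in the IMQ + NS group (median 1.57). Tgm3 and Tgm1, transglutaminases that join Sprr proteins to their partners, went from 8.24 to 106 FPKM and from 8.70 to 46.2 FPKM (means of 4 samples, log2 fold change SE 0.50 and 0.16). Casp14 and Sult2b1 had log2 fold changes of 3.55 and 1.69. Under BZLF 1 of 9 fell (Pla2g4e, log2 fold change -1.57) and none rose, with a median of -0.41, and 4 stayed above and 1 below the controls. The late cornified envelope genes lie beside the Sprr genes and split into 2 groups. Of 14 Lce1 genes, expressed in normal epidermis, 6 rose (5 without control replicate 2) and 2 fell in the IMQ + NS group (median 0.35). Lce1m fell by 4.57 on the log2 scale and Lce1g, Lce1h and Lce1k rose by 3.01, 2.07 and 1.70. Under BZLF only Lce1m was called, at 2.30 higher than in IMQ + NS (median 0.17), and 6 were above and 1 below the controls. The number above was 5 without control replicate 2 or without IMQ + BZLF replicate 2.

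All 6 Lce3 genes, known as the damage-inducible group of the family, rose in the IMQ + NS group, by a median of 7.38. In the controls 4 of the 6 averaged under 0.1 FPKM and passed the filter only through the imiquimod groups. All 6 fell under BZLF, with a median of -4.52. Without IMQ + BZLF replicate 2, 5 fell, and Lce3e did not pass the test (-4.61, limma adjusted p = 0.0701). Lce3a rose from 0.0114 ± 0.0228 to 40.3 ± 24.2 FPKM and stood at 2.14 ± 0.854 FPKM under BZLF (SD, n = 4). Lce3f and Lce3e had log2 fold changes of -5.29 (-4.70 without that library) and -5.23, and Lce3b, listed at 0 in all 4 controls, fell from 33.0 ± 20.5 to 0.978 ± 0.678 FPKM. Against the controls 4 of the 6 stayed higher under BZLF, or 5 without IMQ + BZLF replicate 2. All 6 Lce3 genes and all 5 listed Sprr2 genes were thus called in both comparisons. The filter itself took part in the rise of 4 of these Lce3 genes and of Sprr2e. Most Lce1, envelope protein and enzyme genes were not called between the imiquimod groups. There only 0.321% of all genes were called higher and 2.2% lower, so lack of a call is no likeness to Sprr1a and Sprr4. The likeness of the Lce3 and Sprr2 genes was not itself tested.

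**Figure D5:**
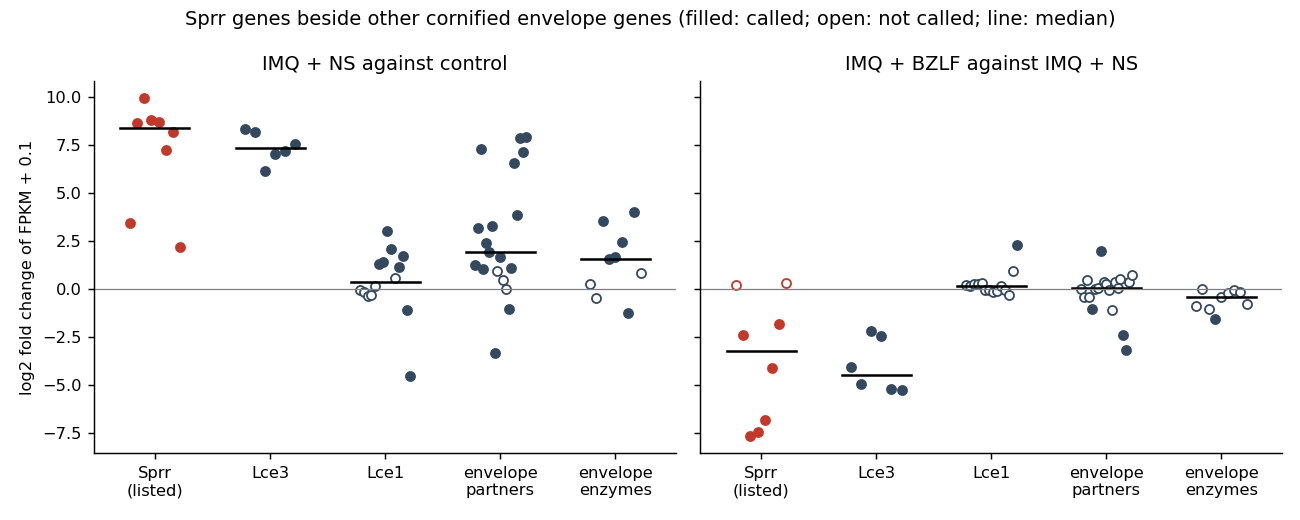
Log2 fold changes (limma, FPKM + 0.1) of single genes in 5 lists for IMQ + NS against control and IMQ + BZLF against IMQ + NS, with called genes filled and list medians as lines. Under BZLF the Lce3 median is -4.52 and the Sprr median -3.26, while the medians of the Lce1 genes, envelope proteins and enzymes are 0.17, 0.07 and -0.41.

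The genes whose pattern over the 12 samples lay nearest to the median Sprr profile were ranked by the root mean square difference of centred log2(FPKM + 0.1). Among 12647 genes outside the family the nearest were Lce3a (0.513), Krt6b (0.576), Defb4 (0.597), Lce3b (0.663), Stfa1 (0.718) and Lce3d (0.736), against a median of 2.97. Krt6b, a keratin of stressed epidermis, went from 1.91 ± 0.580 to 407 ± 156 and then 19.9 ± 11.9 FPKM. Defb4, a beta-defensin, was listed at 0 in the controls and went from 9.16 ± 5.35 to 0.692 ± 0.138 FPKM under BZLF. Of the members themselves Sprr2f lay nearest to the profile, at 0.400, followed by Sprr2h at 1.12 and Sprr1b at 1.13, and Sprr4 lay furthest, at 2.21. The ranking uses every sample, and all points share the same libraries.

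Of 29 transcription factors known to act on Sprr promoters, 12 rose and 3 fell in the IMQ + NS group (median 0.66). Ehf, an Ets factor of epithelia, rose by 3.66 and Ovol1 by 2.85, while the AP-1 subunits Fosb and Fos fell, with log2 fold changes of -5.49 and -4.17. Their control values varied widely, at 22.6 ± 15.8 and 203 ± 116 FPKM. Of the other Fos and Jun genes, Fosl1 rose by 1.82 (limma adjusted p = 4.69e-04), and Fosl2, Jun, Junb and Jund were not called. These other genes were named after their values were seen. Under BZLF none rose by limma (1 at an unadjusted p under 0.05 and 0 by voom) and 2 fell against IMQ + NS (median -0.20). These were Elf3 (-1.26, limma adjusted p = 0.0150) and Pou2f2 (-1.16, adjusted p = 0.0305), named after their values were seen. Without IMQ + BZLF replicate 2 Elf3 lost its call (-1.17, limma adjusted p = 0.0533). Against the controls 6 were higher and 3 lower, and without control replicate 2 10 were higher. The counts were 8 higher and 2 lower without IMQ + BZLF replicate 2.

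Of the cytokines known to act on keratinocytes 15 passed the filter, and 10 of these rose in the IMQ + NS group (median 1.81), with none lower. The number that rose was 9 without control replicate 2. Tgfa, Areg, Il1b and Il1a rose by 3.03, 2.60, 2.07 and 1.97. Under BZLF 5 fell and none rose (median -0.80), and the 5 are named here after their values were seen. Il1b fell from 28.5 ± 19.2 to 2.07 ± 0.666 FPKM, Tnf from 1.66 ± 0.446 to 0.386 ± 0.215 FPKM and Il19 from 2.13 ± 0.817 to 0.128 ± 0.255 FPKM. Il17a and Il17f were at 0.717 ± 0.296 and 0.782 ± 0.394 FPKM in the IMQ + NS group, and Il17a was listed at 0 in every control and BZLF sample. Il17a and Il17f averaged under 0.1 FPKM in the control and IMQ + BZLF groups and passed the filter only through the IMQ + NS group. Il19 averaged under 0.1 FPKM in the controls and passed it only through the imiquimod groups. The filter itself thus took part in the rises of Il17a, Il17f and Il19. Against the controls 4 were higher and 3 lower under BZLF, or 2 lower without control replicate 2 or without IMQ + BZLF replicate 2.

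Markers of cell types moved with the groups as well. The skin label held, with epidermal keratinocyte markers at 2986 to 4194 FPKM in the controls, 7060 to 10002 FPKM in the IMQ + NS group and 4456 to 5700 FPKM in the IMQ + BZLF group. Of these 10 markers 7 rose with imiquimod, 1 fell under BZLF and 3 stayed above the controls (2 without IMQ + BZLF replicate 2). All 4 hyperproliferative keratins rose and 3 fell under BZLF (190 to 616, 2344 to 4207 and 1140 to 1392 FPKM), and all 8 neutrophil markers rose and fell again (32.7 to 50.8, 3132 to 9906 and 62.9 to 83.7 FPKM), 7 of them without IMQ + BZLF replicate 2. Of these 8, Ly6g averaged under 0.1 FPKM in the controls and passed the filter only through the imiquimod groups, so the filter took part in its rise. S100a8 and S100a9 make up most of the neutrophil sum and are also made by inflamed keratinocytes. All 9 hair shaft keratins rose and none was called under BZLF (13.3 to 299, 6117 to 9006 and 8251 to 12680 FPKM). All 6 muscle markers and 4 of 6 adipocyte markers (5 without control replicate 2) fell with imiquimod, and none of either list was called between the imiquimod groups. None of the 6 seminal vesicle or 5 tested stomach markers was called in any comparison (1 stomach marker fell under BZLF at an unadjusted p under 0.05). Of the small intestine markers 1 was tested, Fabp6, and it fell under BZLF from 1.06 ± 0.285 to 0.161 ± 0.130 FPKM (limma adjusted p = 0.00731) with controls at 0.959 ± 0.296 FPKM. All other counts of 0 given for these gene lists were also 0 at an unadjusted p under 0.05 and by voom. The part of these cell types in the Sprr values was not tested. In whole skin, more cells of a type and more RNA per cell cannot be told apart.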

How the data were processed

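RNA-seq of skin from 12 mice gave the data (4 control, 4 IMQ + NS and 4 IMQ + BZLF samples, grouped by their titles). The authors deposited FPKM, normalized for gene length and depth, with 1 value per gene and sample and without pooling. The submitters' processing notes name fastp, HISAT2, HTSeq, R 3.2.0 and the mm10 assembly, whereas the methods of the study name Bowtie2 and eXpress, and which of them made the table was not settled. Labels and methods also name different extraction and library kits.

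No column was left out. Whole reads were recovered by dividing each gene's values by a common step (tolerance 0.02 of a read), which gave whole numbers in all 12 samples for 15277 of 15288 genes, so the table holds no fractions of reads split between homologs. How reads that match several genes were treated is not given in the sources used here. The main test was limma 3.58.1 (R 4.3.3) on log2(FPKM + 0.1) over the genes averaging 0.1 FPKM or more, in separate fits of 4 against 4 samples with trended variances and Benjamini-Hochberg adjustment. The constant understates the fold change of low genes. Figures and exact permutation tests of log2 ratios used Python 3.11.15. The ratio pairs were to hold Sprr3, which was dropped because it had at most 1 read in a sample. The fit was tested on simulated data before use.

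Named genes were all members, up to 4 called genes a list by size of change (mean FPKM of at least 1) and the 6 genes nearest in pattern; other names are marked in the text. Lists covered other Sprr genes, envelope proteins and enzymes, Lce1, Lce3, transcription factors, cytokines and markers of 9 cell types or tissues. The members and lists were chosen with earlier results of these data known. Alternatives were other constants, filters, scalings, variance models and call rules, all samples in a joint fit, the replicate number as a block, and each sample left out. The voom fit, and the gene lists and read ratios without single libraries, were added after the data had been seen. Genome positions are from GENCODE M21 and promoters from RefSeq.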

Additional observations from a re-analysis of the deposited data

Results flagged for a closer look

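Of 26 sets of 4 samples (a Sprr gene in a group) examined for a sample far from the other 3, 6 held such a sample. Chance alone would mark about 1 set in 20 if the values were continuous and normally distributed. That rate does not hold for sets of at most 2 reads, such as those of Sprr2e and Sprr3 below. Sprr1a was 236 FPKM in control replicate 2 and 88.9 to 113 FPKM in the other controls. In control replicate 4, Sprr1b was 0.811 FPKM (0.268 to 0.350 in the others), Sprr2d was 1.02 FPKM (0.751 to 0.772) and Sprr2e was 0.0796 FPKM (0.0386 to 0.0395), the last of these at 2 reads against 1. Sprr3 was 0.0203 FPKM in IMQ + NS replicate 3 and 0.0211 FPKM in IMQ + BZLF replicate 1, each of them 1 read, and 0 in the other samples of those groups.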

How the results depend on the processing

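The counts of members called were within 1.5 times the reported value in all 126 alternatives, and ranged from 5 to 8 only for IMQ + BZLF against control. The fold changes of single members kept direction and side of the threshold in 501 alternatives. The 3 exceptions were Sprr2b and Sprr2e with 1 added (0.86 and 0.53, IMQ + BZLF against control) and Sprr2d without IMQ + BZLF replicate 2 (1.97). The ratio of Sprr1a to Sprr4 between the imiquimod groups ranged from -0.25 to 0.10 when a sample was left out, and changed sign when replicate 2 of the IMQ + NS group (0.10) or of the IMQ + BZLF group (0.07) was left out. Without IMQ + BZLF replicate 4, the 4 ratio differences of that group that had passed the threshold had adjusted p-values of 0.0571 to 0.0762 (exact permutation tests). With 1 added, Sprr1a to Sprr2d (2.66, IMQ + BZLF against control) and Sprr1a to Sprr4 (1.26, IMQ + NS against control) passed it at an adjusted p of 0.0381 (exact permutation tests). Same-numbered samples of different groups deviated together only in part (correlations -0.152 to 0.26). Such values do not settle whether the replicate number pairs them, and no source used here says so. With the replicate block 8, 6 and 7 members were called in the 3 comparisons, as without it. Rescaling samples to equal sums moved the median of all genes from 0.05 to -0.07 in IMQ + NS against control and from -0.02 to -0.12 in IMQ + BZLF against control. Over all genes, counts differed by more than 1.5 times with 1 added (1023 lower in IMQ + NS against control; 17 higher and 188 lower in IMQ + BZLF against IMQ + NS; 979 higher and 865 lower in IMQ + BZLF against control). In IMQ + BZLF against IMQ + NS, the 49 genes called higher became 88 at an unadjusted p and 19 to 78 when a sample was left out. Depth limits Sprr2e and Sprr3 in normal skin, at 2 reads or fewer in a library.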
